A study of Mus musculus with 6 samples.

Results

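A set of 10 genes tied to the fasting response of the liver was followed in mice fed a high-fat diet (HFD). Most are known as targets of the transcription factors CREBH and PPARα or respond to the same fall in insulin: *Creb3l3*, *Fgf21*, *Apoa4*, *Mfsd2a*, *Angptl4*, *Pdk4*, *Igfbp1*, *Vnn1*, *Enho* and *Txnip*. They are 10 of the 21528 genes with a value above 0 in any library, matched by gene name, and all 10 were among the 12225 genes tested. The 10 genes were selected with their differences between these same livers known, so their values are given as a description, with no p-value for any of them. Livers came from 3 wild-type (WT) mice and 3 mice carrying on both alleles the TRIM24 C52/55A knockin, a CRISPR/Cas9 edit that turns a pair of cysteines, Cys52 and Cys55, into alanine. TRIM24 is a transcriptional co-regulator with a RING domain that works as an E3 ubiquitin ligase, and both cysteines lie in that domain. Every mouse was C57BL/6 by the labels, with C57Bl/6J given as the background in the methods, 5 months old, and had been fed for 3 months with a diet in which fat supplied 60% of the energy. The WT mice were littermates, and each mouse gave 1 library. The knockin was present in the whole animal and not only in hepatocytes. Fasted, refed or chow-fed livers were not analysed here, and the time of day at sampling is not given in the sources used here. By the methods food was freely available except where noted, and no fast is noted for these livers. Induction by fasting was therefore not measured in these libraries. The labels do not give the sex of the sequenced mice, and the study describes the HFD-fed mice of this age in its other liver assays as male.

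When insulin falls, adipose tissue releases fatty acids, and the liver oxidises them and makes ketone bodies. PPARα, a nuclear receptor that binds fatty acids and their derivatives, pairs with RXR on repeats of the sequence AGGTCA and switches on genes of this programme. CREBH, encoded by *Creb3l3*, is a transcription factor held in the membrane of the endoplasmic reticulum. It moves to the Golgi, where the proteases S1P and S2P release its active part, and it shares targets such as *Fgf21* and *Apoa4* with PPARα. FOXO1, the glucocorticoid receptor and the glucose-sensing factor ChREBP regulate others of the 10 genes.

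Values are FPKM, which divide the fragments of a gene by transcript length and library size. Log2 fold changes are TRIM24 C52/55A minus WT on log2(FPKM + 1) with their standard error (SE), and this scale understates the change of low values. Summed FPKM ran from 644619 to 648221 in WT and from 673244 to 676791 in TRIM24 C52/55A livers, which is not a read depth. Low values put the worth of 1 fragment at 0.968 to 1.04 of its value in WT replicate 1, so the libraries were of similar depth. Of 12 hepatocyte markers 11 were listed, and *Alb* was listed in no library. The 11 had summed FPKM of 22636 to 24212 in WT and 22604 to 22974 in TRIM24 C52/55A livers. Of these 11, *Cps1* rose (0.63, adjusted p = 0.0281 from limma), and *Cyp2e1* (-0.54, adjusted p = 0.0318) and *Asgr1* (-0.31, adjusted p = 0.0482) fell. *Trim24* itself ranged from 4.85 to 5.96 FPKM in WT and from 4.31 to 8.46 FPKM in TRIM24 C52/55A livers, and since the knockin replaces codons, this does not check the labels. One library stood apart in its content of fat-cell RNA. In TRIM24 C52/55A replicate 2, *Adipoq*, *Plin1* and *Lep* reached 4.55, 3.32 and 3.98 FPKM, while no other library exceeded 0.127 FPKM for any of them, and 11 of 14 adipocyte markers were highest there. One of the 11, the adrenergic receptor gene *Adrb3*, was high in all 3 knockin livers, at 7.81, 12.4 and 10.6 FPKM against 1.99 to 2.17 FPKM in WT (log2 fold change 1.86, adjusted p = 0.000716 from limma), and no other of the 14 passed the test. *Cfd*, not among the 11, was lower in every knockin liver (-1.61, adjusted p = 0.0617). The summed FPKM of the 14 markers, of which the hepatocyte-expressed *Car3* makes up most, was 1942 to 2314 in WT and 1554 to 2180 in TRIM24 C52/55A livers, and lowest in that same library. Of genes that adipocytes also express, *Cd36*, *Pparg*, *Fasn*, *Me1*, *Gpd1* and *Cidec* were still called without that library (limma), with log2 fold changes of -1.64, -1.40, -1.40, -1.35, -0.81 and -2.91.

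Of the 10 genes, 6 were lower in every TRIM24 C52/55A liver than in any WT liver (*Fgf21*, *Apoa4*, *Mfsd2a*, *Pdk4*, *Igfbp1* and *Vnn1*), 1 was higher in every one (*Enho*), and 3 overlapped (*Creb3l3*, *Angptl4* and *Txnip*). Over all genes tested, 22.5% were lower without overlap and 6.31% higher without overlap. By the threshold of 0.05 on the adjusted p (limma, with Benjamini-Hochberg adjustment over all genes), 5 of the 10 were called, of which 4 were lower and 1 was higher, where 7.72% of all genes tested were called, 6.09% lower and 1.64% higher. The genes were picked on this contrast, and nothing is read from these shares. The median log2 fold change of the 10 was -1.04, and that of all genes tested was -0.075. In bulk tissue, fewer cells that express a gene and less RNA per cell cannot be told apart.

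**Figure D1:**
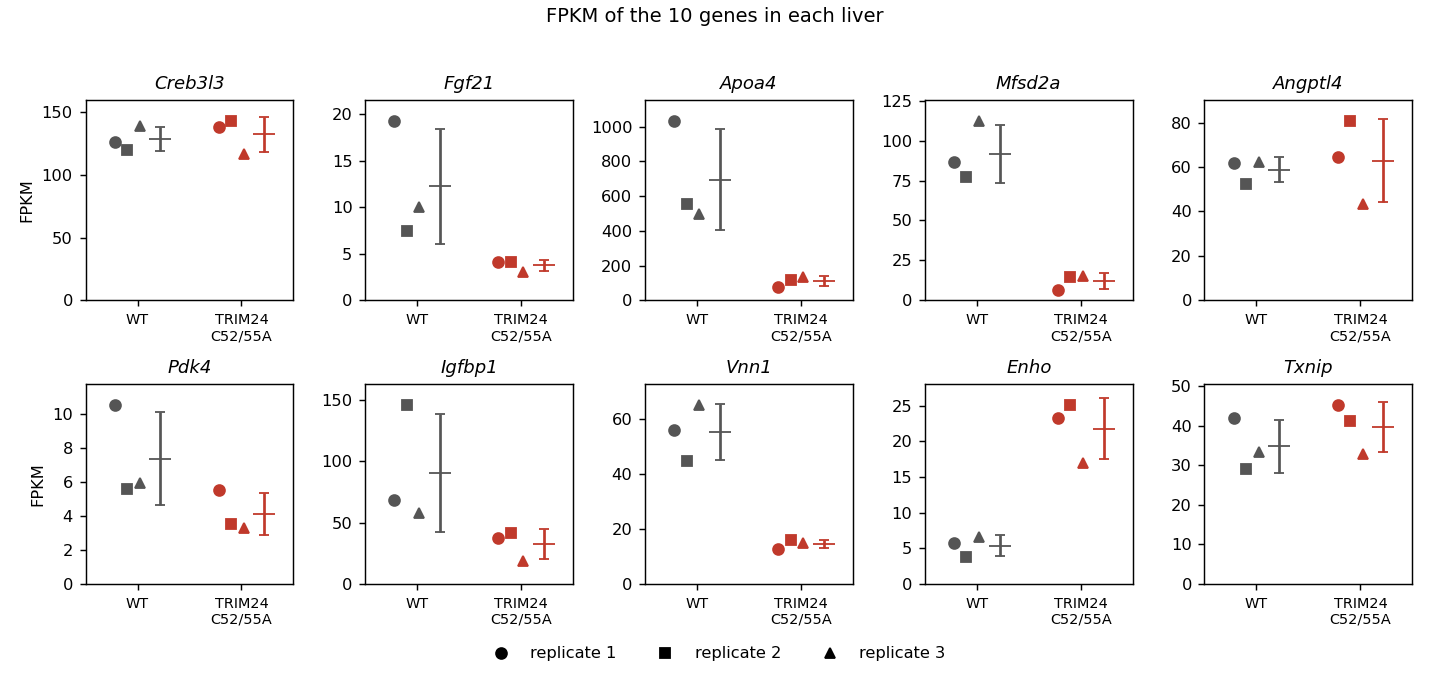
FPKM (vertical axes, each from 0) of the 10 genes in 3 WT (grey) and 3 TRIM24 C52/55A (red) livers. Symbols mark replicates 1 to 3, and the bar beside them is the mean ± SD. *Mfsd2a* ran from 77.0 to 112 FPKM in WT and from 6.17 to 15.1 FPKM in TRIM24 C52/55A livers, while *Creb3l3* ran from 116 to 143 FPKM over both genotypes.

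The gene of the regulator came first. *Creb3l3* lies on chromosome 10 from 81084324 to 81098874 on the reverse strand of GRCm38. WT livers had 126, 120.1 and 139 FPKM (replicates 1 to 3, the order kept throughout), and TRIM24 C52/55A livers had 138, 143 and 116 FPKM. The highest and the lowest value both came from TRIM24 C52/55A livers, so the WT values lay within their range. Means were 128 ± 9.60 and 132 ± 14.1 FPKM (SD, n = 3 each), and the log2 fold change was 0.04 (SE 0.10). It stayed between -0.02 and 0.19 in the 11 alternative analyses that can move it. The sign turned with TPM, to -0.02, without TRIM24 C52/55A replicate 2, to -0.01, and without WT replicate 2, to just under 0. *Creb3l3* also varied least within the WT genotype, with a coefficient of variation (CV, the SD as a share of the mean) of 7.48%. RNA abundance says nothing of how much CREBH was cleaved, which was not measured here.

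RefSeq promoter sequence was at hand for 7 of the 10 genes in 8 windows. Each window is the 250 bases before a transcription start, and those that hold a match to a searched motif are shown as the sequence on which factors of the programme could act. The motifs searched, on both strands, were AGGTCA (the nuclear receptor half-site), the DR1 element AGGTCANAGGTCA with up to 2 mismatches (the repeat bound by PPARα with RXR, which contains the half-site), TGACGT (a core of the CREB family), CACGTG (the E-box of ChREBP, USF and MYC), TGTTTAC (the forkhead motif) and TATAAA (the TATA box). For *Creb3l3*, whose gene has 2 RefSeq starts, the window of the internal start (chr10:81092592-81092841, reverse strand, GRCm38.p6) held a DR1 match with 2 mismatches, at -209 to -197 from the start, in capitals here.
Creb3l3: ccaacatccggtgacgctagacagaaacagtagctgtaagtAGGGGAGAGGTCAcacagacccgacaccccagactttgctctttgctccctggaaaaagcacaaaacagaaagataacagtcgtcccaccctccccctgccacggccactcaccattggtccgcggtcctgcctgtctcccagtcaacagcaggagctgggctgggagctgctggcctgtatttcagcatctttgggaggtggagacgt
The capitals end in AGGTCA at -202 to -197, and the window of the outer start held none of the motifs. For *Fgf21* (chr7:45615491-45615740, reverse strand) the capitals mark CACGTG at -50 to -45 and TATAAA at -28 to -23.
Fgf21: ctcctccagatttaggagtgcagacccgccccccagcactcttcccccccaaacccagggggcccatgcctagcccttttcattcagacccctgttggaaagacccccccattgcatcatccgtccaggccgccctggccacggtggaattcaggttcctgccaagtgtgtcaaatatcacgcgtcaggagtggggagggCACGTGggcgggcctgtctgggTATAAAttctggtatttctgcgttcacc
For *Mfsd2a* (chr4:122961189-122961438, reverse strand) the capitals mark AGGTCA at -213 to -208.
Mfsd2a: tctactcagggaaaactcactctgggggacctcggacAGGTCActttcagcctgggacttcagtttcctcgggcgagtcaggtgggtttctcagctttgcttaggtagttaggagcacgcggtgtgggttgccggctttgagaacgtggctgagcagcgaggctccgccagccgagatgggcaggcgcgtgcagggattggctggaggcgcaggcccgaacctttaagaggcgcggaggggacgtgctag
For *Txnip* (chr3:96557707-96557956, forward strand) the capitals mark TGTTTAC, read on the opposite strand, at -121 to -115.
Txnip: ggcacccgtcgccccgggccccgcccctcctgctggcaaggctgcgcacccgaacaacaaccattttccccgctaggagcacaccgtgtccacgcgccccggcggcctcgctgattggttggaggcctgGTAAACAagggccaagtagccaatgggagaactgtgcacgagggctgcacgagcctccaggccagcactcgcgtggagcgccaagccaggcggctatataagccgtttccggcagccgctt
The windows of *Apoa4*, *Pdk4* and *Igfbp1* held none of these letters, and TGACGT was in no window of the 7 genes. Among all 32851 RefSeq windows of this length, AGGTCA was in 14%, TATAAA in 12.4%, TGACGT in 6.47%, CACGTG in 6.02%, the DR1 in 3.24% and TGTTTAC in 3.17%. These matches describe the letters only. The genes with AGGTCA differ widely in their values, *Creb3l3* with a log2 fold change of 0.04 and *Mfsd2a* with -2.91.

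Among the genes for secreted hormones, *Fgf21* encodes a hormone that the liver releases in fasting and under other metabolic stress, and that acts through FGFR1 with the co-receptor β-Klotho. It lies on chromosome 7 from 45613886 to 45615490. WT livers had 19.2, 7.44 and 10.1 FPKM, and TRIM24 C52/55A livers had 4.07, 4.14 and 3.02 FPKM. The groups did not overlap, and WT replicate 1 was 2.58 times WT replicate 2, a wider spread than among the knockin livers. Means were 12.2 ± 6.18 and 3.74 ± 0.624 FPKM (SD, n = 3 each), 3.27-fold higher in WT. On the log2 scale the difference was -1.39 (SE 0.28), and with 1 liver left out at a time it lay between -1.66 and -1.03.

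*Igfbp1* encodes a binding protein for insulin-like growth factors, and its transcription is repressed by insulin and raised by FOXO1. It lies on chromosome 11 from 7197782 to 7202546. WT livers had 68.6, 146 and 57.4 FPKM, and TRIM24 C52/55A livers had 37.2, 41.3 and 18.8 FPKM. The groups did not overlap, but WT replicate 2 stood well above both other WT livers. Means were 90.5 ± 48.0 and 32.4 ± 12 FPKM (SD, n = 3 each), 2.79-fold higher in WT. Its log2 fold change was -1.41 (SE 0.38), and it was -1.01 without WT replicate 2.

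*Enho*, on chromosome 4, encodes adropin, a small secreted protein linked to lipid and glucose use. It is known in liver as a gene that falls in fasting and rises with fat in the diet. *Enho* was the only one of the 10 that was higher in every TRIM24 C52/55A liver. WT livers had 5.78, 3.76 and 6.61 FPKM, and TRIM24 C52/55A livers had 23.3, 25.1 and 17.0 FPKM. Even the lowest knockin value lay well above the highest WT value. Means were 5.38 ± 1.46 and 21.8 ± 4.26 FPKM (SD, n = 3 each), 4.04-fold higher in TRIM24 C52/55A livers. That is a log2 fold change of 1.84 (SE 0.20), between 1.65 and 2.01 with 1 liver left out. *Enho* ranked last of the 10 by mean FPKM in WT and took rank 6 in TRIM24 C52/55A livers, since FPKM are scaled to transcript length and can be ranked across genes.

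Among the genes of lipid handling, *Apoa4* encodes apolipoprotein A-IV, a component of lipoproteins that the fasting or fat-loaded liver makes under CREBH. In the files it spans 46239841 to 46243529 on chromosome 9. WT livers had 1031, 556 and 500.0 FPKM, and TRIM24 C52/55A livers had 76.9, 119 and 137 FPKM. It was the most abundant of the 10 in WT, and no knockin liver came near the lowest WT value. Means were 696 ± 292 and 111 ± 30.7 FPKM (SD, n = 3 each), 6.28-fold higher in WT. The log2 fold change was -2.60 (SE 0.29), and it was -2.28 without WT replicate 1, the liver with the highest value. The intestine also makes *Apoa4*, and of 10 small intestine markers *Lct*, *Sis*, *Cdx1*, *Cdx2*, *Olfm4* and *Fabp6* were listed in no library, while *Fabp2*, which liver also expresses, fell with a log2 fold change of -1.21 (adjusted p = 0.00217 from limma). Since the hepatocyte marker *Alb* was not listed either, absence from the list does not show that a gene was silent.

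*Mfsd2a* encodes a sodium-dependent transporter of lysophosphatidylcholine, the form in which docosahexaenoic acid is taken up, and in liver it is induced by fasting through PPARα. It lies on chromosome 4 from 122946850 to 122961188. WT livers had 86.6, 77.0 and 112 FPKM, and TRIM24 C52/55A livers had 6.17, 14.7 and 15.1 FPKM. Both genotypes were far apart, and TRIM24 C52/55A replicate 1 was lowest. Means were 91.8 ± 18.1 and 12 ± 5.06 FPKM (SD, n = 3 each), 7.64-fold higher in WT, which was the widest ratio of the 10. Its log2 fold change was -2.91 (SE 0.30), and it was -2.52 without TRIM24 C52/55A replicate 1. By mean FPKM *Mfsd2a* fell from rank 3 of the 10 in WT to rank 8 in TRIM24 C52/55A livers.

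*Angptl4* encodes an inhibitor of lipoprotein lipase (LPL) and is a PPAR target in both liver and fat. In the files it spans 33773750 to 33781575 on chromosome 17. WT livers had 61.7, 52.2 and 62.3 FPKM, and TRIM24 C52/55A livers had 64.6, 80.5 and 43.3 FPKM. The WT values lay inside the range of the knockin values. Means were 58.7 ± 5.68 and 62.8 ± 18.7 FPKM (SD, n = 3 each), and the log2 fold change was 0.06 (SE 0.20). The highest value came from TRIM24 C52/55A replicate 2, the library with *Adipoq*, *Plin1* and *Lep*, and without it the log2 fold change was -0.14. The part of adipocyte RNA in this value was not tested. The sign of the difference also turned with TPM, to -0.01, with array weights, to -0.04, and without WT replicate 2, to -0.03.

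Among the enzymes, *Pdk4* encodes a kinase that switches off the pyruvate dehydrogenase complex and so spares glucose. It lies on chromosome 6 from 5483351 to 5496309. WT livers had 10.5, 5.60 and 5.96 FPKM, and TRIM24 C52/55A livers had 5.53, 3.52 and 3.30 FPKM. The groups were separated by only the gap between 5.60 and 5.53 FPKM. Means were 7.36 ± 2.74 and 4.12 ± 1.23 FPKM (SD, n = 3 each), 1.79-fold higher in WT. This was a log2 fold change of -0.69 (SE 0.24), which became -0.43 without WT replicate 1, which alone exceeded 10 FPKM.

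*Vnn1* encodes vanin-1, the pantetheinase that returns pantothenate and cysteamine from pantetheine, and it is a well-known PPARα target in liver. It lies on chromosome 10 from 23894688 to 23905343. WT livers had 56.2, 44.8 and 65.1 FPKM, and TRIM24 C52/55A livers had 12.9, 15.9 and 15.1 FPKM. All 3 knockin livers were close together, and far below the WT livers. Means were 55.3 ± 10.2 and 14.6 ± 1.55 FPKM (SD, n = 3 each), 3.79-fold higher in WT. The log2 fold change was -1.84 (SE 0.14), between -1.98 and -1.72 with 1 liver left out, the narrowest range among the 6 lower genes.

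*Txnip* encodes an arrestin-like protein that binds thioredoxin and limits glucose uptake, and its transcription follows glucose through ChREBP. WT livers had 42.0, 29.0 and 33.3 FPKM, and TRIM24 C52/55A livers had 45.2, 41.3 and 32.9 FPKM. The groups overlapped over most of their range. Means were 34.8 ± 6.60 and 39.8 ± 6.32 FPKM (SD, n = 3 each), and the log2 fold change was 0.19 (SE 0.16). It was above 0 in each of the 11 alternatives that can move it, from 0.07 to 0.34.

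**Figure D2:**
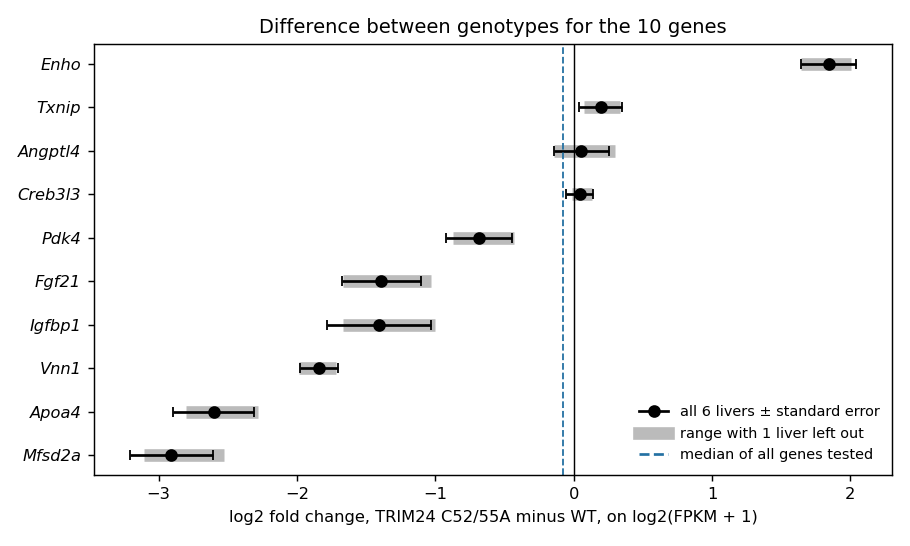
Log2 fold change (TRIM24 C52/55A minus WT) on log2(FPKM + 1) for each of the 10 genes, with dots and bars for all 6 livers ± SE, grey bands for the range when 1 liver was left out, and a dashed line at the median of all genes tested. Bands of *Creb3l3* and *Angptl4* cross 0, from -0.01 to 0.13 and from -0.14 to 0.30, and those of the 6 lower genes end at -0.43 or below.

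Of the 16 alternative analyses, 5 (both filters, no trend, robust moderation and the replicate block) leave the log2 fold change of these genes as it is by construction. Across the other 11 the 6 lower genes stayed below 0 and *Enho* and *Txnip* stayed above it, and *Creb3l3* and *Angptl4* took both signs. That stability follows in part from how the genes were picked. The genes did not peak in 1 particular animal. In WT, replicate 1 was highest for 4 of the genes, replicate 2 for 1 and replicate 3 for 5. *Fgf21*, *Apoa4*, *Pdk4* and *Txnip* shared their peak in WT replicate 1, and *Igfbp1* alone peaked in WT replicate 2. In TRIM24 C52/55A livers, replicate 2 was highest for 6 genes, and replicates 1 and 3 for 2 each.

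Most of the 10 also differed more between mice of 1 genotype than genes usually did here. In WT the CV was 53.0% for *Igfbp1*, 50.5% for *Fgf21*, 41.9% for *Apoa4* and 37.2% for *Pdk4*, against a median of 9.42% over all genes tested. In all, 9 of the 10, each but *Creb3l3*, were above that median. In TRIM24 C52/55A livers 8 of the 10 were above the median of 12.5%, led by *Mfsd2a* with 42.1% and *Igfbp1* with 36.9%, and the exceptions were *Creb3l3* with 10.7% and *Vnn1* with 10.6%. *Fgf21* went from 50.5% in WT to 16.7% in TRIM24 C52/55A livers, and *Angptl4* from 9.68% to 29.7%. With 3 mice a group these CVs are themselves imprecise, and no difference between them was tested.

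**Figure D3:**
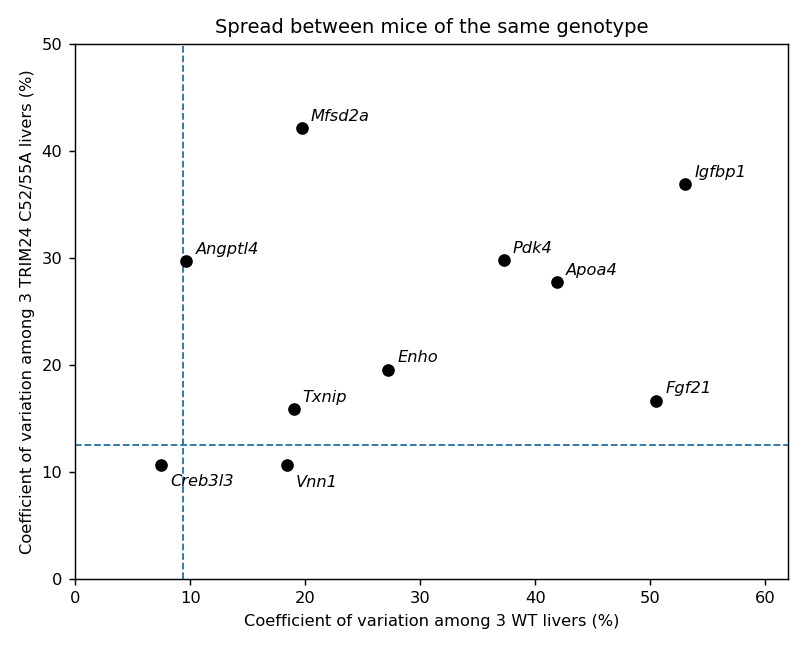
CV of FPKM in percent among 3 WT livers (horizontal) and among 3 TRIM24 C52/55A livers (vertical) for the 10 genes, with dashed lines at the medians over all genes tested, 9.42% and 12.5%. Only *Creb3l3* lies below both lines, and *Igfbp1* and *Mfsd2a* lie farthest out on the 2 axes.

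Ratios to *Creb3l3* in the same library were taken only for genes that were lower, and those of *Apoa4* and *Mfsd2a* are given. None was taken for *Angptl4* and *Txnip*, whose values overlapped between genotypes, or for *Enho*, which was higher. *Apoa4* had 8.19, 4.63 and 3.60 times the FPKM of *Creb3l3* in WT livers and 0.556, 0.832 and 1.18 times in TRIM24 C52/55A livers. *Mfsd2a* had 0.688, 0.641 and 0.806 times in WT and 0.0446, 0.103 and 0.130 times in TRIM24 C52/55A livers. Since both genes of each ratio come from 1 library, a scaling of the whole library leaves these ratios as they are. These ratios use the same contrast as the selection and add no test.

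Of the 10 genes, 3 share their interval in the files with genes on the opposite strand, and the sources used here do not state whether counting used strand, so reads of such partners cannot be told apart. The interval given for *Enho* covers 71.6 kb, from 41569775 to 41641416 on chromosome 4, where GENCODE M21 gives the gene 2.18 kb on the reverse strand. *Dnaic1*, a gene for a dynein chain of cilia on the forward strand, shares that interval and overlaps the end of *Enho*. It was not listed in WT replicate 1, which was taken as 0, had 0.114 and 0.14 FPKM in the other WT livers and had 5.60, 3.88 and 2.76 FPKM in TRIM24 C52/55A livers. *Dnaic1* was thus nearly silent in WT and present in every knockin liver, with a log2 fold change of 2.19 (SE 0.19, adjusted p = 0.00104 from limma), and its partner *Enho* was higher in the same 3 livers. Both genes' values are therefore given together, and *Gm12406*, the other gene in that interval, was below 1 FPKM in every library.

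*Apoa4* shares its interval with the antisense gene *Gm10680*, which had 10.4, 7.19 and 4.03 FPKM in WT livers and 0.415, 2.44 and 2.08 FPKM in TRIM24 C52/55A livers. Its log2 fold change was -1.65 (SE 0.38, adjusted p = 0.0362 from limma), in the direction of *Apoa4*, and in each library it was far below *Apoa4*. A further gene in the interval, *RP24-302M3.5*, was under 1 FPKM in all libraries and was not tested. *Txnip*, whose interval in the files covers 11 kb on chromosome 3 from 96555765 to 96566801 against 3.93 kb in GENCODE, shares it with the antisense gene *Gm15441*. *Gm15441* had 0.208, 0.146 and 0.462 FPKM in WT and 1.20, 0.955 and 0.239 FPKM in TRIM24 C52/55A livers, with overlapping groups (log2 fold change 0.46, SE 0.21, adjusted p = 0.239 from limma). The other 7 genes share their interval with no other gene of the annotation.

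**Figure D4:**
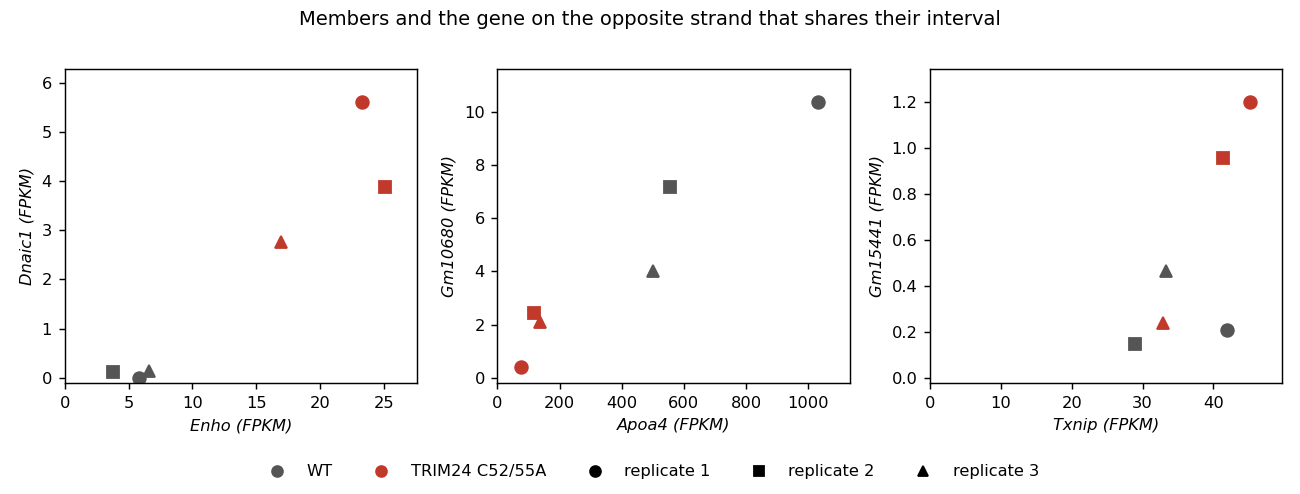
FPKM of *Enho*, *Apoa4* and *Txnip* (horizontal) against the opposite-strand gene in the same interval (vertical) in each library, WT in grey and TRIM24 C52/55A in red, with symbols for replicates 1 to 3. *Dnaic1* stays at or under 0.14 FPKM where *Enho* is at or under 6.61 FPKM, and reaches 2.76 to 5.60 FPKM where *Enho* is at 17.0 FPKM or more.

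The regulators of the programme were followed next. Of 30 genes for factors and proteases that act on this programme, 2 were lower and 0 higher by adjusted p under 0.05 (limma, over all genes), and 4 lower and 2 higher by unadjusted p under 0.05. The 2 lower genes are 6.67% of the list, beside 6.09% of all genes tested. The list's median log2 fold change was -0.05 against -0.075 over all genes. *Ppara* had 28, 34.8 and 27.1 FPKM in WT and 33.4, 19.8 and 21.2 FPKM in TRIM24 C52/55A livers, so the groups overlapped (log2 fold change -0.29, SE 0.19, adjusted p = 0.407). Its partner *Rxra* had a log2 fold change of -0.12 (SE 0.09, adjusted p = 0.472), and the coactivator gene *Ppargc1a* of -0.11 (SE 0.18, adjusted p = 0.761). *Mbtps1* and *Mbtps2*, which encode the proteases that release CREBH, had log2 fold changes of 0.12 (SE 0.08, adjusted p = 0.409) and -0.02 (SE 0.10, adjusted p = 0.935).

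Values for *Hnf4a* (0.04), *Foxo1* (-0.07) and *Nr3c1*, the glucocorticoid receptor (0.01), were as small on the log2 scale, with adjusted p of 0.798, 0.752 and 0.979. *Mlxipl*, which encodes ChREBP, had 98.4, 103 and 91.4 FPKM in WT and 108, 146 and 112 FPKM in TRIM24 C52/55A livers (log2 fold change 0.31, SE 0.12, adjusted p = 0.161), without overlap. The 2 genes called were *Cebpb* (-0.94, adjusted p = 0.0428), a factor of gluconeogenic and acute-phase genes, and *Mlx* (-0.38, adjusted p = 0.0245), the partner of ChREBP. Their calls were lost in 10 and 7 of the 16 alternatives, among them leaving out any 1 WT liver or TRIM24 C52/55A replicate 1, with adjusted p of at most 0.128 and 0.106. *Bcl6*, a repressor known to counter PPARα at fasting genes, was chosen after its values were seen. It had 3.27, 6.36 and 3.08 FPKM in WT and 28.7, 26.8 and 4.91 FPKM in TRIM24 C52/55A livers, so 2 knockin livers stood far above the rest and replicate 3 lay among the WT values (log2 fold change 1.75, SE 0.57, adjusted p = 0.107).

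Other known PPARα targets, 70 tested of a list of 74 that holds none of the 10, were lower as a group. All 70 had a log2 fold change below 0, where 65.5% of all genes tested did, and 37 fell and 0 rose by adjusted p under 0.05 (limma, over all genes), or 53 and 0 by unadjusted p under 0.05. That is 52.9% of the list lower, beside 6.09% of all genes, and the median was -0.49 beside -0.075. This list, like the others here, was chosen with earlier results of these data known, so its share is a description and no independent support. *Cyp4a14*, a fatty acid ω-hydroxylase, had 475, 438 and 731 FPKM in WT and 136, 86.0 and 125 FPKM in TRIM24 C52/55A livers (-2.22, SE 0.22, adjusted p = 0.00174). *Acot3*, a peroxisomal acyl-CoA thioesterase, fell from 10.6 ± 2.93 to 1.62 ± 1.03 FPKM (-2.21, SE 0.32, adjusted p = 0.00774). *Cd36*, a fatty acid transporter, fell from 61.9 ± 8.48 to 19.1 ± 1.79 FPKM (-1.64, SE 0.12, adjusted p = 0.000333). *Me1*, malic enzyme, which SREBP1 and ChREBP also drive, fell by 1.39 on the log2 scale and *Abcd2*, a peroxisomal transporter, by 1.34 (adjusted p = 0.00304 and 0.00489). These 5 calls held in all 16 alternatives. The list was not separated from targets of PPARγ, whose gene *Pparg* also fell (-1.40, adjusted p = 0.00491 from limma). Which receptor lay behind these falls was not tested.

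Scaling moved the size of this group difference but not its side. With median-of-ratios scaling 28 of the 70 fell and 65 were below 0, and with quantile normalization 26 fell and 64 were below 0, at medians of -0.38 and -0.33. These scalings put the median of all genes at 0.01 each, and the calls over all genes at 250 higher and 406 lower and at 255 higher and 378 lower, beside 200 and 744 as deposited. Without WT replicate 1, WT replicate 3 or TRIM24 C52/55A replicate 1 the calls numbered 20, 22 and 21 in place of 37, and without TRIM24 C52/55A replicate 2, the library with fat-cell RNA, 34. *Fabp4*, which adipocytes express strongly, had 45.5 FPKM in that library and 6.55 to 16.9 FPKM elsewhere.

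Other known CREBH targets, 22 tested of 23, gave 20 genes below 0, 10 that fell and 1 that rose (15 and 1 by unadjusted p under 0.05), with a median of -0.49. Those below 0 stand beside 65.5% of all genes tested, and 45.5% of the list fell and 4.55% rose, beside 6.09% and 1.64% of all genes tested. The PPARα and CREBH lists share 2 genes. *Cidec*, a lipid droplet protein, had 25.2, 9.94 and 16.4 FPKM in WT and 0.663, 6.12 and 2.12 FPKM in TRIM24 C52/55A livers, with the highest knockin value in the library with fat-cell RNA (-2.36, SE 0.50, adjusted p = 0.0286). Its call was lost in 7 of 16 alternatives, with adjusted p up to 0.101, and not without that library (-2.91). *Apoc2*, the activator of LPL, fell from 441 ± 59.2 to 195 ± 37.3 FPKM (-1.19, SE 0.15, adjusted p = 0.00480). The fatty acid elongase and desaturase genes *Elovl5*, *Fads2* and *Fads1*, which SREBP1 also drives, fell by 1.23, 1.09 and 0.92 on the log2 scale (adjusted p = 0.0106, 0.00833 and 0.0132), and lost their calls in 1, 0 and 3 of 16 alternatives, *Fads1* among others without WT replicate 1 or TRIM24 C52/55A replicate 1. *Hamp*, which encodes the iron hormone hepcidin, rose from 841 ± 28.8 to 1327 ± 230.1 FPKM (0.64, SE 0.12, adjusted p = 0.0210), and lost its call in 5 of 16 alternatives, among them without any 1 WT liver or TRIM24 C52/55A replicate 1. Without WT replicate 1, WT replicate 3 or TRIM24 C52/55A replicate 1 the list gave 4, 6 and 4 calls in place of 11.

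**Figure D5:**
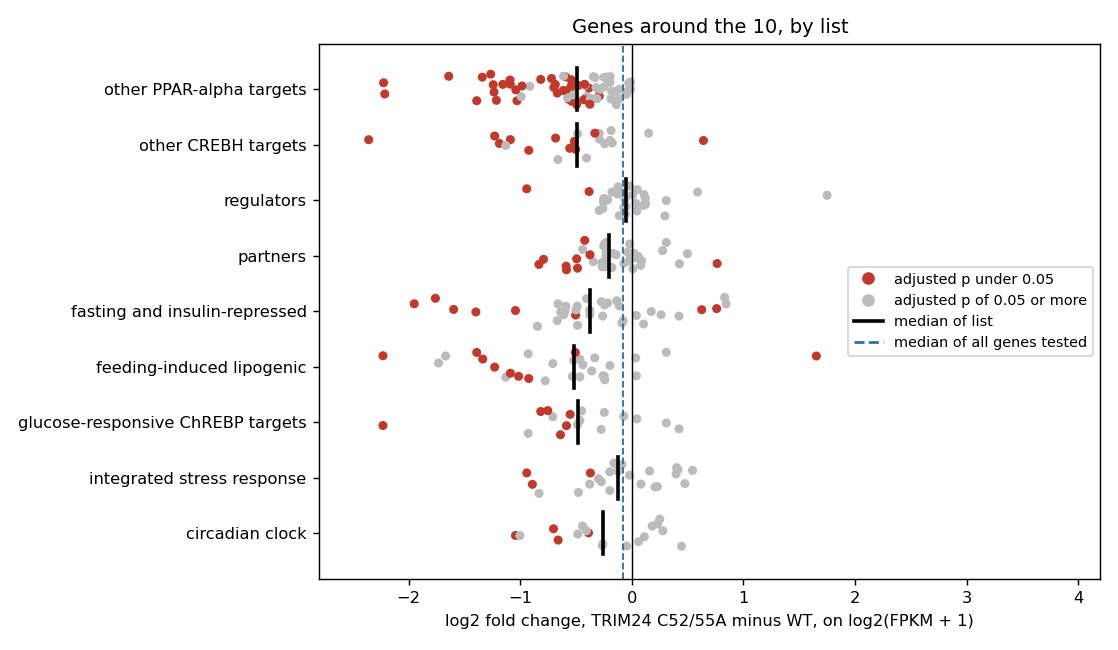
Log2 fold change (TRIM24 C52/55A minus WT) on log2(FPKM + 1) for each tested gene of 9 lists that hold none of the 10 genes, with red dots for adjusted p under 0.05 (limma, over all genes), grey dots otherwise, black bars at the list medians and a dashed line at the median of all genes. Dots of the other PPARα targets all lie below 0 at a median of -0.49, and those of the regulators centre on -0.05.

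Genes that act together with the 10 products were followed next. Of 38 tested partners of 42 listed, 8 fell and 1 rose (14 and 1 by unadjusted p under 0.05), with a median log2 fold change of -0.20. These are 21.1% and 2.63% of the list, beside 6.09% and 1.64% of all genes tested. Without WT replicate 1, 2 or 3 or TRIM24 C52/55A replicate 1 the calls numbered 2, 4, 1 and 2 in place of 9. For FGF21, the co-receptor gene *Klb* had a log2 fold change of -0.25 (SE 0.16, adjusted p = 0.406) and *Fgfr4* of -0.07 (adjusted p = 0.639). *Fgfr1*, scarce in hepatocytes, rose from 1.34 ± 0.368 to 2.95 ± 0.129 FPKM (0.77, SE 0.13, adjusted p = 0.0136), and lost its call without WT replicate 3 or TRIM24 C52/55A replicate 1 and with no filter on low values, at adjusted p of at most 0.0616. For the IGF axis, *Igf1* (0.08, adjusted p = 0.748) and *Insr* (-0.02, adjusted p = 0.908) showed no difference past the threshold.

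For ANGPTL4, the lipase gene *Lpl* had 1.47, 3.57 and 2.46 FPKM in WT and 2.08, 9.62 and 2.37 FPKM in TRIM24 C52/55A livers. As with *Angptl4*, the highest value was in TRIM24 C52/55A replicate 2, and the log2 fold change of 0.50 (SE 0.45, adjusted p = 0.562) was -0.07 without it. *Angptl8*, a feeding-induced relative, had a log2 fold change of 0.04 (SE 0.20, adjusted p = 0.939), and *Gpihbp1*, the LPL anchor of capillaries, of -0.35 (SE 0.17, adjusted p = 0.259).

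For PDK4, 1 of the other kinases of the complex passed the test. *Pdk1* fell from 26.3 ± 2.70 to 15.1 ± 4.31 FPKM (-0.79, SE 0.18, adjusted p = 0.0328), and *Pdk2* had -0.44 (SE 0.11, adjusted p = 0.0519), past the threshold in 5 of 16 alternatives. *Pdk3* was under the filter on low values and not tested. Of the genes of the complex itself, *Pdha1* fell by 0.59 (adjusted p = 0.00955) and *Dlat* by 0.49 (adjusted p = 0.0316) on the log2 scale. *Pdhb* (-0.23, adjusted p = 0.0828), *Dld* (-0.24, adjusted p = 0.0763) and *Pdhx* (-0.23, adjusted p = 0.159) did not pass. *Vnn3*, the neighbour and relative of *Vnn1*, fell from 47.7 ± 4.19 to 26.6 ± 5.36 FPKM (-0.83, SE 0.14, adjusted p = 0.0124), and *Pank1*, the PPARα-regulated pantothenate kinase of coenzyme A synthesis, by 0.37 (adjusted p = 0.0331). For TXNIP, *Txn1*, which encodes its thioredoxin partner, fell by 0.42 (adjusted p = 0.0417), and the glucose transporter gene *Slc2a2* by 0.58 (adjusted p = 0.0467). The relative *Arrdc4*, like *Txnip* a ChREBP target, had -0.25 (SE 0.14, adjusted p = 0.330). Of these, *Pdha1* kept its call in all 16 alternatives, and *Vnn3*, *Dlat*, *Slc2a2*, *Pdk1*, *Pank1* and *Txn1* lost it in 4, 7, 8, 9, 10 and 10 of them. Each of these 6 lost it without WT replicate 1 and without WT replicate 3, at adjusted p of at most 0.235.

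The next lists followed the state that induces or represses the 10 genes. Of 36 tested genes induced by fasting or repressed by insulin, 6 fell and 2 rose (16 and 4 by unadjusted p under 0.05), with a median of -0.38 against -0.075 over all genes. These are 16.7% and 5.56% of the list, beside 6.09% and 1.64% of all genes tested. The 5 largest falls were of *Lcn2* (-1.95, adjusted p = 0.00480), *Mt1* (-1.76, adjusted p = 0.000333), *Mt2* (-1.60, adjusted p = 0.00608), *Pparg* (-1.40, adjusted p = 0.00491) and *Per1* (-1.04, adjusted p = 0.0268). *Lcn2* encodes an acute-phase protein, *Mt1* and *Mt2* are metal-binding metallothioneins that glucocorticoids induce, *Pparg* drives fat storage and *Per1* is a clock gene, so none of the 5 is an enzyme of gluconeogenesis. *Pparg* is not known as a gene that fasting induces in liver, and without it 5 genes of this list fell. *Irs2*, an insulin receptor substrate induced by fasting, rose from 2.85 ± 0.830 to 5.45 ± 0.814 FPKM (0.76, SE 0.18, adjusted p = 0.0373), and *Cps1*, the first enzyme of the urea cycle, rose from 321 ± 37.1 to 498 ± 78.0 FPKM (0.63, SE 0.13, adjusted p = 0.0281). *Irs2*, *Cps1* and *Per1* lost their calls in 5, 6 and 5 of 16 alternatives. Without TRIM24 C52/55A replicate 2 the list gave 13 calls in place of 8, and without WT replicate 3 or TRIM24 C52/55A replicate 1 it gave 4.

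Of 29 tested genes that feeding and insulin induce, 8 fell and 1 rose (19 and 2 by unadjusted p under 0.05), with a median of -0.52. The calls make up 27.6% and 3.45% of the list, beside 6.09% and 1.64% of all genes tested. Of the genes that fell, *Me1*, *Elovl5*, *Fads1* and *Fads2* also stand in the PPARα or CREBH list, so these counts are not separate. *Rgs16*, a regulator of G-protein signalling that follows ChREBP, fell from 41.3 ± 19.5 to 7.77 ± 2.97 FPKM (-2.23, SE 0.34, adjusted p = 0.00965). It lost its call in 1 of 16 alternatives, with no filter on low values. Fatty acid synthase *Fasn* fell by 1.34 (adjusted p = 0.0317), and lost its call in 8 of 16 alternatives. The gene that rose, *Cyp4a12a* (1.65, SE 0.10, adjusted p = 0.000160), encodes an androgen-dependent ω-hydroxylase and is no lipogenic enzyme. Without WT replicate 1 or TRIM24 C52/55A replicate 1 the list gave 5 calls in place of 9.

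Of 17 tested targets of ChREBP other than *Txnip*, 6 fell and 0 rose (10 and 1 by unadjusted p under 0.05), with a median of -0.49. The 6 are 35.3% of the list, where 6.09% of all genes tested fell. They include *Rgs16*, the fructolytic gene *Tkfc* (-0.64, adjusted p = 0.0101) and *Gpd1* (-0.82, adjusted p = 0.00223), which is also a PPARα target. *Txnip*, at 0.19, had the opposite sign to that median. A stress list held 24 tested genes of the integrated stress response, which can raise *Fgf21* apart from fasting, and of the unfolded protein response. Of these 24, 3 fell and 0 rose (7 and 2 by unadjusted p under 0.05), with a median of -0.12. The 3 that fell, 12.5% of the list beside 6.09% of all genes, were *Cebpb*, *Atf5* (-0.89, adjusted p = 0.00273), which held in all 16 alternatives, and *Slc3a2* (-0.37, adjusted p = 0.0350), which was lost in 10. Of 18 tested clock genes, 4 fell and 0 rose (6 and 1 by unadjusted p under 0.05), with a median of -0.26. The 4, which are 22.2% of the list beside the same 6.09%, include *Per1*, *Ciart* (-0.70, adjusted p = 0.0331) and *Bhlhe40* (-0.66, adjusted p = 0.0199), each of which lost its call without TRIM24 C52/55A replicate 1. Without any 1 WT liver, or without TRIM24 C52/55A replicate 1, the stress list gave 1 call and the clock list 0 or 1. The time of day is not given in the sources used here, and its part in these values was not tested.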

How the data were processed

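RNA of 6 livers was sequenced, 3 WT and 3 TRIM24 C52/55A, 1 library from each mouse. The deposited values are FPKM per gene, made by the authors, and the submitters' processing notes name bcl2fastq, Salmon 0.14.0, DESeq2 1.30.0 and the build GRCm38, without the role of each. Each table lists only genes with a value above 0, and a gene missing from a library was taken as 0 there. The hepatocyte marker *Alb* was listed in no library, so absence from the list does not show that a gene was silent. FPKM keep no total count, so depth is known only in relative terms. Groups and replicate numbers came from the labels. That samples are separate mice rests on the labels, and p-values measure the spread between these mice.

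A linear model with genotype as its only term was fitted to log2(FPKM + 1) by limma 3.58.1 (R 4.3.3), its variances moderated along a mean-variance trend. Genes averaging 0.5 FPKM or more over the 6 libraries entered, with Benjamini-Hochberg adjustment over all 12225 genes and a threshold of 0.05. The fit was tested on simulated data. With 3 against 3 livers an exact permutation test cannot go below p = 0.10, and none was used. The alternatives were a pseudocount of 0.1, no filter, a filter at 1 FPKM, TPM (each library rescaled to 1 fixed total), median-of-ratios scaling, quantile normalization, no trend, robust moderation, array weights, the replicate number as a block, and each of the 6 livers left out. Tables were handled in Python 3.11.15 (pandas 2.3.3, numpy 2.4.6) and figures drawn with matplotlib 3.10.9.

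The 10 genes, the other lists and the motifs were chosen with earlier results of these data known. Named were all 10 genes, a set of regulators and partners whatever their values, and in each other list at most the 5 largest falls and 3 largest rises past the threshold, and a few genes are not reported here. The start of an interval in the files was raised by 1 to count from 1. Of the 10 intervals, 6 equal GENCODE M21. Promoters are RefSeq sequence on GRCm38.p6, and 3 genes (*Angptl4*, *Vnn1* and *Enho*) were not matched. Of the other cell types, summed FPKM in WT and TRIM24 C52/55A livers were 216 to 277 and 186 to 253 for 10 Kupffer and macrophage markers, 147 to 156 and 137 to 146 for 9 endothelial, 228 to 233 and 219 to 274 for 10 stellate, 29.2 to 55.4 and 22.5 to 35.1 for 7 cholangiocyte and 3.50 to 3.85 and 4.45 to 4.86 for 9 lymphocyte markers. The higher lymphocyte sum came from *Cd4* (means of 0.384 and 1.99 FPKM), and the other 8 summed to 3.15 to 3.44 and 2.48 to 2.94 FPKM. Of the endothelial markers *Lyve1* was lower (-1.26, adjusted p = 0.0281). Skeletal muscle markers summed to under 1 FPKM, and of 10 small intestine markers 4 were above 0, with sums of 162 to 166 in WT and 58.6 to 86.0 in TRIM24 C52/55A livers, nearly all of it *Fabp2*, which liver also expresses (-1.21, adjusted p = 0.00217).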

Additional observations from a re-analysis of the deposited data

How the results depend on the processing

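Of the 16 alternatives, 5 leave the log2 fold changes of the 10 genes identical by construction. Of 110 values under the other 11, 1 moved by more than the SD between replicates, a wide margin for leaving out 1 of 3 livers, and the median of the 10 was -1.16 to -0.73 with 1 liver left out. A replicate number marks no shared animal here, and deviations of same-numbered livers from their group means correlated at -0.123, -0.0988 and 0.00267, with 0 of 6 livers correlating best with its own number. The numbers were not taken as a pairing, and with the replicate number as a block 578 genes were called in place of 944, with 0 of the regulators, 3 of the partners and 32 of the PPARα targets. With no filter on low values, which brings 21528 genes under the adjustment, 347 genes were called, with 22 PPARα targets, 3 CREBH targets, 1 regulator, 1 partner, 4 fasting, 3 feeding, 3 ChREBP, 1 stress and 0 clock genes. TPM gave 1555 calls over all genes (197 higher, 1358 lower), 14 feeding and 5 stress genes. Median-of-ratios scaling gave 0 regulators, 3 partners, 1 stress and 2 clock genes, and quantile normalization gave 0 regulators, 3 partners and 2 clock genes. Without the trend there were 1 regulator, 5 partners and 1 stress gene, with robust moderation 1 regulator, and with array weights 13 fasting genes. With 1 liver left out the calls ran from 296 (without TRIM24 C52/55A replicate 1) to 1272 (without TRIM24 C52/55A replicate 2) over all genes, 20 to 34 for PPARα targets, 4 to 12 for CREBH targets, 0 to 3 for regulators, 1 to 9 for partners, 4 to 13 for fasting, 5 to 12 for feeding, 4 to 9 for ChREBP, 1 to 4 for stress and 0 to 5 for clock genes. The cause of these changes was not tested, beyond the larger number of genes without the filter and the smaller number of livers. Of 911 values of 57 other named genes, 135 fell short of the threshold, 5 newly passed it and 0 changed direction with a call.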
